A study of Mus musculus with 6 samples.

Results

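The genes described are 10 glycolytic genes, Eno1, Eno1b, Gapdh, Pkm, Ldha, Pgk1, Tpi1, Aldoa, Pgam1 and Hk2, out of 19386 genes listed in the authors' deposited table of expression. They were chosen by symbol, with the group means of the same table in view, so their expression values are given as a description and without a test. All 10 were found, each in 1 row. RNA was sequenced from bone marrow-derived macrophages of wild-type C57BL/6 mice that had been exposed to room air (3 libraries) or to cigarette smoke (3 libraries). Marrow cells depleted of erythrocytes were cultured with 10% supernatant of L929 cells, the source of the growth factor that drives macrophage differentiation, and harvested on day 11. The labels' protocols speak of marrow taken from each mouse, without tying a library to an animal. They give no age, sex or length of exposure. Fetal calf serum was at 10% for every library. The description of every library, in both groups, carries the tag ctl, and so do the headings of both group means. The tag may mark the control arm of a larger design, but the labels do not spell it out.

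Glycolysis converts glucose to pyruvate in the cytosol and yields ATP without oxygen. Macrophages are known to raise it when they are activated by inflammatory signals, and hypoxia-inducible factor 1 (HIF-1) switches on most of its genes. Hexokinase 2 (Hk2) traps glucose in the cell by phosphorylation, aldolase A (Aldoa) splits the sugar into a pair of trioses, and triosephosphate isomerase (Tpi1) interconverts them. Glyceraldehyde-3-phosphate dehydrogenase (Gapdh), phosphoglycerate kinase (Pgk1), phosphoglycerate mutase (Pgam1), enolase (Eno1) and pyruvate kinase (Pkm) carry out the later steps, and lactate dehydrogenase A (Ldha) turns pyruvate into lactate. Eno1b is a copy of Eno1 in the mouse genome.

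The Pkm gene makes different pyruvate kinases through a pair of mutually exclusive exons, the upstream one for the M1 form and the downstream one for the M2 form. Both are shown because the splicing results turn on them. They lie on chromosome 9, plus strand, at chr9:59675029-59675195 and chr9:59675568-59675734 (GRCm38), each within the coding sequence of 1 GENCODE transcript, and both are 167 bases long. Capitals mark the 64 positions at which the exons differ when laid side by side without gaps, an identity of 61.7%.
Upstream exon: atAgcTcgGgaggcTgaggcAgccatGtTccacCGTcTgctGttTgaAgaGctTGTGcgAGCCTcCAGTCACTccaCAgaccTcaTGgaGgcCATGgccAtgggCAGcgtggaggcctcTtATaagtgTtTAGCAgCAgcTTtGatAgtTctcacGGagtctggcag
Downstream exon: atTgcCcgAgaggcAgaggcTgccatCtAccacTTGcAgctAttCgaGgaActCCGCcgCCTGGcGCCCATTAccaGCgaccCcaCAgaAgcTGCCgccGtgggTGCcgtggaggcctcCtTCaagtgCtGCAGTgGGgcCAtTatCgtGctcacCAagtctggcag

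The cells carried a macrophage profile. All 10 macrophage markers examined were present and their summed means in the authors' deposited table were 57169 normalized counts in room air and 57735 after smoke, with none called different. Single markers went both ways without a call, from Mrc1 at -0.71 (SE 0.27) to Fcgr1 at 0.51 (SE 0.26) on the log2 scale of the authors' deposited table. Defining markers of neutrophils, B cells, erythroid cells and skeletal muscle were at or near 0, with summed means of 0.322 and 0.508, 6.68 and 4.14, 0 and 0.508, and 10.4 and 7.81 normalized counts (room air first) in the authors' deposited table. The 6 stromal markers summed to 44.5 in room air and 10.3 after smoke in the authors' deposited table, with none called, and Pf4, a megakaryocyte gene that macrophages can also express, was at 37.9 and 43.5. Their part in the values below was not tested.

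Every one of the 10 genes had a higher mean after smoke than in room air. The table holds group means only, of counts normalized by size factors, and no value of a single library, so the spread within a group is not shown. The standard error (SE) of each fold change comes from the authors' fit, which also held libraries of other groups. In bulk RNA, more cells of a kind and more RNA per cell cannot be told apart. An adjusted p under 0.05 in the authors' deposited table was carried by 5 of the 10, Eno1, Eno1b, Gapdh, Ldha and Aldoa. Over all 12082 genes with an adjusted p in that table, 7.69% had one under 0.05, with 4.15% higher and 3.53% lower after smoke. Since the genes were chosen on this comparison, nothing is read from that contrast of shares. By the authors' deposited table their log2 fold changes had a median of 0.55, against -0.0029 over all genes with an adjusted p, and it was 0.55 without Eno1b.

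**Figure D1:**
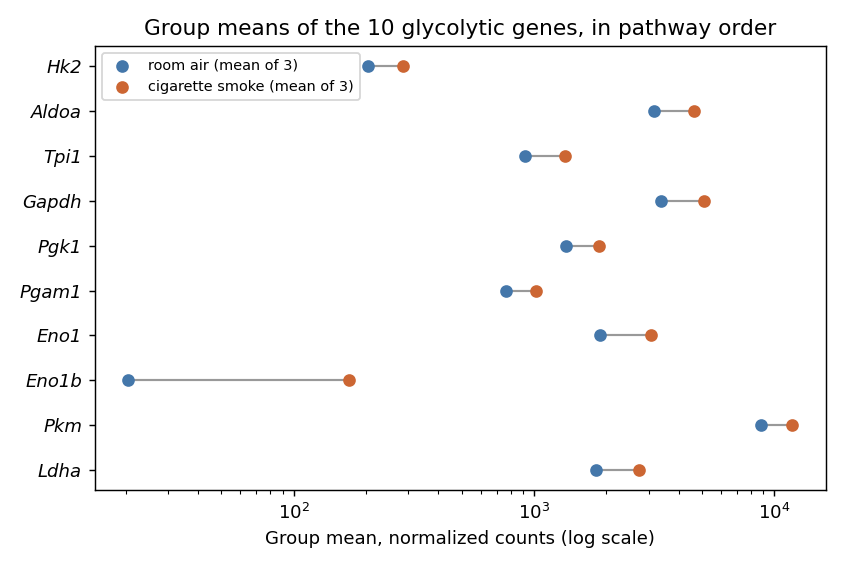
Group means of size-factor-normalized counts (log axis) for the 10 glycolytic genes in pathway order, room air in blue and cigarette smoke in orange, each point the authors' group mean, with no spread given. All 10 orange points lie to the right of the blue ones, by 1.33-fold to 1.63-fold except for Eno1b, at 8.35-fold.

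At the entry step, Hk2 (chromosome 6, 82725025 to 82774454, minus strand) had 203.9 normalized counts as its room air mean and 285.3 after smoke in the authors' deposited table. Its log2 fold change of 0.49 (SE 0.30) had the widest error of the genes other than Eno1b and was not called. Aldoa (chromosome 7, 126795234 to 126800751, minus strand) rose by 0.55 (SE 0.18) on the log2 scale, from 3153 normalized counts in room air to 4613, as the authors' deposited table gives it. Tpi1 (chromosome 6, 124810586 to 124814296, minus strand) had the same log2 fold change, 0.55 (SE 0.19), with means of 919.2 and 1343 in the authors' deposited table, and fell just outside the threshold, at an adjusted p of 0.054 against 0.0355 for Aldoa, which stood just inside.

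In the energy-yielding steps, Gapdh (chromosome 6, 125161715 to 125166467, minus strand) rose by 0.59 (SE 0.19) on the log2 scale, from 3381 normalized counts in room air to 5094, as the authors' deposited table gives it. Pgk1 (chromosome X, 106187100 to 106203699, plus strand), the first enzyme of the pathway to make ATP, had means of 1362 and 1865 in the authors' deposited table, and its change of 0.45 (SE 0.18) on the log2 scale was not called. Pgam1 (chromosome 19, 41911923 to 41918660, plus strand) had the smallest change of the 10, 0.41 (SE 0.16) on the log2 scale, with means of 763.9 and 1016 in the authors' deposited table, and was not called either. The intervals of 1 SE around these consecutive enzymes overlap.

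Eno1 (plus strand of chromosome 4, bases 150236721 to 150248879) rose by 0.70 (SE 0.18) on the log2 scale, from 1882 normalized counts in room air to 3066, as the authors' deposited table gives it. Pkm (chromosome 9, 59656368 to 59679375, plus strand) had means of 8782 and 11865 in the authors' deposited table, and its log2 fold change of 0.43 (SE 0.20) was not called. Ldha (plus strand of chromosome 7, bases 46841475 to 46855627) rose by 0.60 (SE 0.19) on the log2 scale, from 1803 normalized counts in room air to 2723, as the authors' deposited table gives it. Leaving Eno1b aside, the 9 genes spanned log2 fold changes of 0.41 to 0.70, with SEs of 0.16 to 0.30, so these errors do not resolve the order of the fold changes within the pathway. Genes on the other strand overlap Hk2, Tpi1, Gapdh and Aldoa, and whether the counting used strand is not given in the sources used here.

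Levels of different genes were compared per kilobase of the longest protein-coding transcript. On that scale Pkm was the most abundant, at 3611 normalized counts per kilobase in room air and 4879 after smoke in the authors' deposited table. Gapdh followed at 2381 and 3587, and Aldoa at 2035 and 2978. Ldha (993.5 and 1500), Eno1 (928.4 and 1512), Pgk1 (746.5 and 1022), Tpi1 (572.02 and 835.7) and Pgam1 (430.3 and 572.1) formed a middle group on the same scale, in which Ldha and Eno1 exchanged places between the groups. Hk2, at 37.0 and 51.8, and Eno1b, at 11.4 and 95.2 normalized counts per kilobase, were far below the rest, and Eno1b passed Hk2 after smoke. Neighbours in this order cannot be tested, because the table has no spread of a level.

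The fold changes of all genes in this comparison followed the GC content and length of their transcripts. Across 12071 genes, which do not stand for replicates, the log2 fold change of the authors' deposited table had a Spearman's rho of 0.492 with GC content and of -0.445 with length. The 10 genes had GC contents of 49.7% to 57.7% and lengths of 1420 to 5513 nucleotides, where the medians over all genes with an adjusted p were 49.8% and 2991. A smooth trend fitted in both properties gave the 10 genes log2 fold changes of -0.06 to 0.30, with a median of 0.20; only the fit of Hk2 lay below 0. With that trend taken out, all 10 still lay above 0, at a median of 0.34, but only Eno1b kept an adjusted p under 0.05, where 0.779% of all genes did so on the higher side. The remainders were 0.44 for Eno1, 0.45 for Ldha, 0.29 for Gapdh and 0.26 for Aldoa, while that of Hk2, which has the longest transcript of the 10, moved from 0.49 to 0.56. The Gapdh remainder depends on the transcript taken and was 0.51 with the longest transcript of any type.

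**Figure D2:**
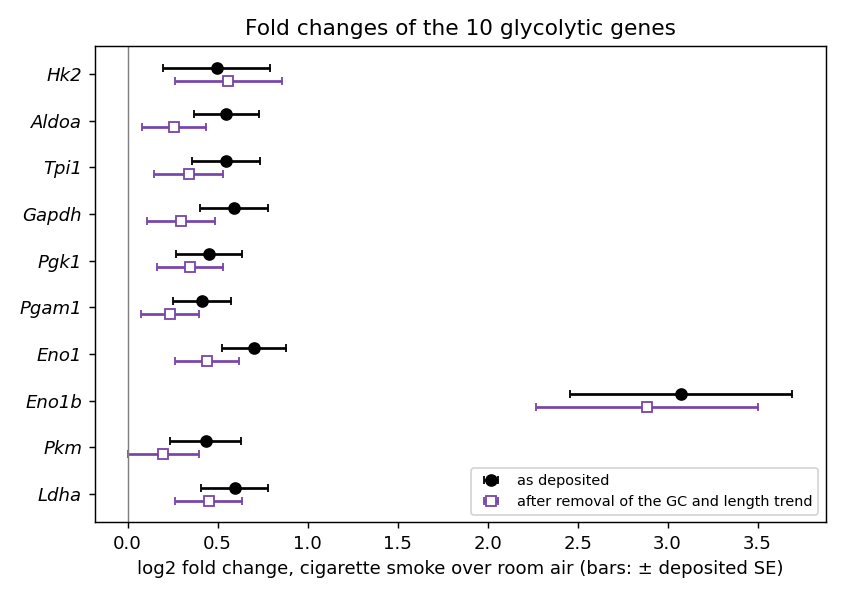
Log2 fold changes of cigarette smoke over room air as deposited (black circles) and after removal of the trend in transcript GC content and length (open squares), with bars of 1 deposited SE. The squares lie closer to 0 for every gene but Hk2, and Eno1b stands apart on both scales, at 3.08 and 2.88.

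The largest change belonged to Eno1b (plus strand of chromosome 18, bases 48045335 to 48048412), which rose by 3.08 (SE 0.62) on the log2 scale, from 20.4 normalized counts in room air to 170.5, as the authors' deposited table gives it. Its longest transcript has 2 exons and 1791 bases, against 12 exons and 2027 bases for Eno1. A local alignment of these transcripts covered 1652 bases, 92.2% of the Eno1b transcript, with 9 mismatches, no gap and a longest identical run of 751 bases. Of the different 50-base stretches in the Eno1b transcript, 82.2% also occur in Eno1 transcripts, so reads of either gene can be placed on the other and the Eno1b value is uncertain. Eno1b also overlaps AC150274.2, a gene annotated on the same strand. Eno1b held 1.07% of the summed Eno1 and Eno1b means in room air and 5.27% after smoke. The sum changed by 0.77 on the log2 scale, against 0.70 for Eno1 alone, and by 0.82 with the copy Gm4735, described below, added.

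Other near-identical copies of these enzymes also had higher means after smoke. Counting as a copy any other listed gene with at least 50% of its 50-base stretches in a transcript of one of the 10, a limit set after the data had been seen, the authors' deposited table listed 34 copies. Of these, 18 carried an adjusted p; all 18 had a log2 fold change above 0, 16 of them above that of their parent (Eno1b for the enolase copy), and 3 had an adjusted p under 0.05, a count to set beside 4.15% of all genes and 7.54% of processed pseudogenes called higher. Only copies with enough reads over the libraries carry an adjusted p, and a high mean in 1 group can be what brings them there, so these counts are a description. The copy of the enolase gene named Gm4735 (plus strand of chromosome 2, bases 80837141 to 80838442), a processed pseudogene that shares 83.3% of its stretches with Eno1 and 91.8% with Eno1b, rose by 1.42 (SE 0.34) on the log2 scale, from 149.5 normalized counts in room air to 398.0, as the authors' deposited table gives it.

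Gapdh had 30 listed copies, of which 15 carried an adjusted p, and 14 of the 15 had a larger log2 fold change than Gapdh itself. Their median was 1.46, against 0.59 for the parent in the authors' deposited table. The most abundant, Gm13394 (chromosome 2, 28933610 to 28934609, minus strand), overlaps Cfap77 on that strand and shares 94.7% of its stretches with Gapdh. It rose by 1.41 (SE 0.30) on the log2 scale, from 342.5 normalized counts in room air to 906.2, as the authors' deposited table gives it. Gm7336, with 95.6% shared, rose from 67.4 to 185.4 in that table, 1.46 (SE 0.49) on the log2 scale. Gm12537, at 0.79 (SE 0.30), and Gm13292, at 0.79 (SE 0.29) on the log2 scale of the authors' deposited table, were not called. Summed, the 30 copies amounted to 21.7% of the Gapdh mean in room air and 33.8% after smoke. Gapdh together with its copies changed by 0.73 on the log2 scale. With the trend in GC content and length removed, Gm13394 stood at 1.10 and kept its call (adjusted p 0.0268), while Gm7336, at 1.17 (adjusted p 0.27), and the enolase copy Gm4735, at 1.14 (adjusted p 0.0539), did not.

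For Pgk1 and Pgam1, the copies with an adjusted p had fold changes within 1 SE of their parents. Pgk1-rs7, in which all 50-base stretches occur in Pgk1, had a log2 fold change of 0.49 (SE 0.27) in the authors' deposited table, next to 0.45 for Pgk1. Pgam1-ps2, likewise wholly contained in Pgam1, had one of 0.53 (SE 0.22), next to 0.41. A further Pgk1 copy wholly contained in its parent, Gm5537, had no adjusted p; the authors' deposited table lists it at 1.28 normalized counts in room air and 4.32 after smoke, 1.72 (SE 0.94) on the log2 scale. The 517 processed pseudogenes with an adjusted p had a median log2 fold change of 0.55 in the authors' deposited table, 84.9% of them lay above 0, and 39 (7.54%) were called higher and 0 lower, against 4.15% of all genes called higher. The 10975 protein-coding genes had a median of -0.01 in the same table. With the trend in GC content and length removed, the pseudogene median was 0.33, 76.2% lay above 0, and the number called higher fell from 39 to 5 of the 517, with 0 lower, where 0.779% of all genes were called higher. Whether reads were shared between copies in a different way in the libraries of the groups was not tested.

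**Figure D3:**
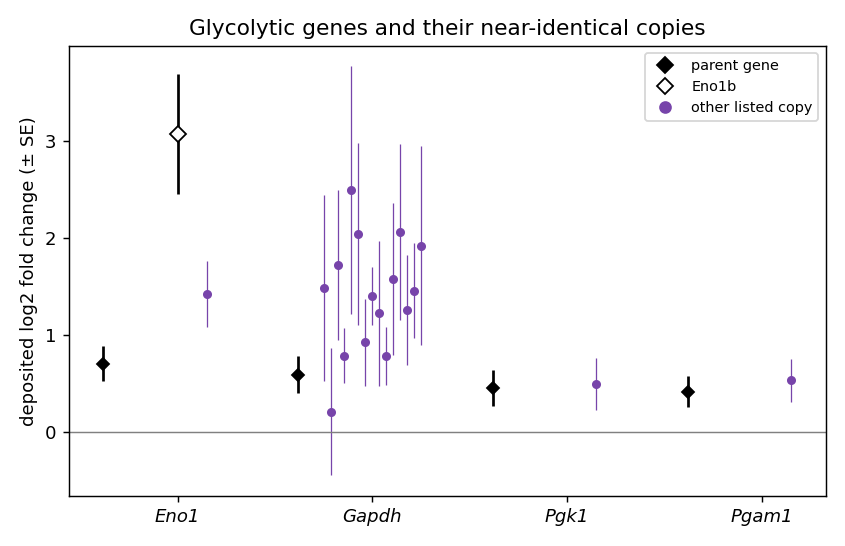
Deposited log2 fold changes with bars of 1 SE for Eno1, Gapdh, Pgk1 and Pgam1 (filled diamonds), Eno1b (open diamond) and their listed copies with an adjusted p (circles, 18 in all). For Gapdh 14 of 15 circles lie above the parent at 0.59, while the single circles of Pgk1 and Pgam1 lie near theirs.

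Splicing levels did not enter the choice of the genes and were measured in each library. JuncBASE, a program that reads alternative splicing from junction reads, reported 6 of its 10376 events within 2 of the 10 genes, 5 in Pkm and 1 in Aldoa, on the strand of the gene. All 6 are described, a choice made after their values were seen. No read counts came with the percentages used here, so their depth is unknown, and cigarette smoke replicate 1 had no value in 4169 of all events, against at most 398 in any other library.

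Pkm messages of these macrophages carried mostly the downstream, M2-type exon in both groups. In the event that sets the exons against each other, the upstream, M1-type exon made up 13.4%, 15.5% and 17.3% in the room air libraries, listed here and below by replicate number, and 15.4%, 16.2% and 8.43% in the smoke libraries. The groups overlapped: the first 2 smoke libraries lay within the room air range and the third below it. The mean was 15.4% ± 1.98 (SD, n = 3) in room air and 13.3% ± 4.27 (SD, n = 3) after smoke. Smoke minus room air was -2.08 percentage points, with an interval at 95% confidence of -8.52 to 4.36 from limma on percentages. On log2 odds the difference was -0.27 (SE 0.49), with an adjusted p of 0.805 from limma over all 10376 events, and an exact permutation test, two-sided, gave p = 0.6, where 3 libraries against 3 cannot give less than 0.1. The interval leaves room for a fall or a gain of several points, and without cigarette smoke replicate 3 the difference was 0.05 on log2 odds.

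Both exons also appeared as cassette events, which draw on the same junctions. Inclusion of the downstream exon was 85.4%, 83.1% and 80.2% in the room air libraries and 80.8%, 80.9% and 89.8% in the smoke libraries. Inclusion of the upstream exon was 11.2%, 12.9% and 14.1% in room air and 11.9%, 13.5% and 6.87% after smoke. In each of these events cigarette smoke replicate 3 stood apart from the other smoke libraries, on the side of the M2 form, while the group means differed by 0.94 and -1.94 percentage points (limma, adjusted p 0.914 and 0.784). Both differences turned sign on log2 odds without cigarette smoke replicate 3, from 0.13 to -0.20 for the downstream exon and from -0.29 to 0.0048 for the upstream exon. With other single libraries left out, the downstream exon ranged from 0.0036 without room air replicate 3 to 0.30 without cigarette smoke replicate 1, with 0.26 without room air replicate 1 and 0.30 without cigarette smoke replicate 2. The upstream exon was at -0.49 without cigarette smoke replicate 2.

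Retention was reported for the introns that end and begin at the upstream Pkm exon. The intron before it (chr9:59672074-59675028) was retained at 14.3%, 15.4% and 12.3% in room air and at 11.5%, 7.83% and 22.1% after smoke (limma, adjusted p 0.926). The interval after it (chr9:59675196-59678043), which contains the downstream exon, was retained at 20%, 19.8% and 14.1% in room air and at 8.97%, 11.6% and 19.4% after smoke, a difference of -4.60 percentage points with an interval of -11.8 to 2.59 (limma, adjusted p 0.656). Again the groups overlapped through cigarette smoke replicate 3. On log2 odds the second difference, -0.53, was -0.87 without that library (limma, unadjusted p 0.0452, adjusted p 0.188) and -0.26 without cigarette smoke replicate 1. The first, -0.13, was -0.58 without cigarette smoke replicate 3 and turned to 0.24 without cigarette smoke replicate 2. Over all 3305 retained introns the median difference was -3.79 points, and 89.9% were lower after smoke. Gm49759, a transcript of unknown coding status annotated within Pkm on the same strand, covers part of these introns, so reads there may belong to it.

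In Aldoa, retention of an intron at chr7:126797777-126797973 was 50% and 16.7% in the second and the third room air library. It was 9.09% and 14.3% in the second and the third smoke library, and the first library of either group had no value. Both smoke values lay below both room air values. The difference was -21.6 percentage points, with an interval of -40.4 to -2.87 from limma on percentages, while on log2 odds it was -1.72 with an interval of -4.32 to 0.88. Without room air replicate 2, the library at 50%, the log2 odds difference was -0.59, and without room air replicate 3 it was -2.85. The comparison rests on 2 libraries a group, where an exact permutation test cannot give less than its p of 0.333, and limma on log2 odds gave an adjusted p of 0.537. In limma with Benjamini-Hochberg adjustment 0 of the 6 events passed 0.05, as did 0 of all 10376 (0%), and 0 of the 6 had an unadjusted p under 0.05, where 10.8% of all events did. For the Aldoa intron the unadjusted p was 0.147 there, 0.0378 with a pseudocount of 5 points and 0.0281 in limma on percentages, with adjusted p-values of 0.537, 0.39 and 0.36.

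**Figure D4:**
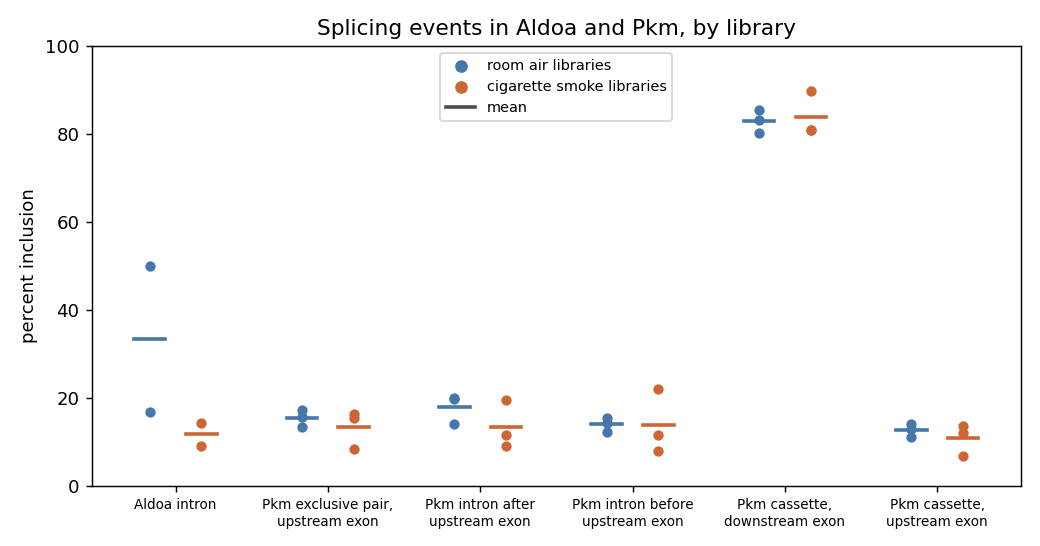
Percent inclusion of the 6 splicing events in Aldoa and Pkm in each library, room air in blue and cigarette smoke in orange, with short lines at the means. The Pkm downstream exon lies at 80.2% to 89.8% in all 6 libraries and the upstream exon at 6.87% to 17.3%, and the groups overlap in each Pkm event.

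The authors' deposited rMATS table held 4 retained introns in 3 of the genes, out of 3887. Of these, 0 had a false discovery rate under 0.05, where 14.5% of all introns did. The intron before the upstream Pkm exon, with the same coordinates as in JuncBASE, came nearest, where the authors' deposited table puts sample set 1 above set 2 by 3.7 percentage points, with a false discovery rate of 0.0755. That table does not say which group each set is. The introns in Eno1 (chr4:150241141-150242121) and Gapdh (chr6:125162102-125162211 and chr6:125163041-125163138) had differences of 0.1, 0 and 0.1 points between the sets, each with a false discovery rate of 1 according to the authors' deposited table.

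Promoters were examined as a description only. The shared direction of the genes is that of the means they were chosen on and is not read as a result. RefSeq start sites on GRCm38.p6 were found for 9 of the 10 genes, 15 starts in all. The letters ACGTG and GCGTG, the core to which HIF-1 binds, were searched on both strands in the 250 bases before each start, and so was the E-box CACGTG, which contains ACGTG on each strand. ACGTG or GCGTG occurred before at least 1 start of 8 of the 9 genes, and in 12 of the 15 windows, some of which overlap. It occurred in 38.6% of all 32851 windows of this length, and in 63.8% of the 9178 windows with at least 60% GC. These shares are counted per window, so the count of genes, which can have several starts, has no matching share. The window of Tpi1 held neither. A match is a description of the letters and not of binding.

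Windows of Ldha and Pgk1 are shown because they hold repeated ACGTG matches and no annotated exon. The window of Hk2 has as many matches as that of Pgk1 and is not shown. That of Ldha (chr7:46845554-46845803, plus strand) had 5 matches to ACGTG, with each of its 2 CACGTG matches counted on both strands. That of Pgk1 (chrX:106186850-106187099, plus strand) had 2. Capitals mark the matches to ACGTG on either strand.
Ldha: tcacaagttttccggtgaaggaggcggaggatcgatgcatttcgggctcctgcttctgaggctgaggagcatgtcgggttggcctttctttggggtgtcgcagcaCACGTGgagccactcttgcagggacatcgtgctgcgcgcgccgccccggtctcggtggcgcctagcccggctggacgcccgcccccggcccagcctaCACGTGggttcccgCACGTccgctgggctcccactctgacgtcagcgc
Pgk1: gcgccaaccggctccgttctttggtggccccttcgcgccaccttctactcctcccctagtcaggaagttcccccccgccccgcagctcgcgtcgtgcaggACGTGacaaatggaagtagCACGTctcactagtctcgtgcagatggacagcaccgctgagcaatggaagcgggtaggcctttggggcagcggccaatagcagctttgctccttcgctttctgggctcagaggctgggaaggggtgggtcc

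Glucose and lactate transport, the entry and exit of the pathway, included some of the larger changes among neighbouring genes. In the authors' deposited table, 3 of the 9 transporter genes with an adjusted p were called higher and 0 lower, where 4.15% of all genes were called higher. The list's median was 0.30, and 0.02 with the trend in GC content and length removed; 3 of the 9 lay below 0. Slc2a1, the glucose transporter GLUT1, rose by 1.00 (SE 0.27) on the log2 scale, from 190 normalized counts in room air to 377.1, as the authors' deposited table gives it. Slc16a3, the lactate exporter MCT4, rose from 135.5 to 286.8 in that table, 1.08 (SE 0.30) on the log2 scale. Bsg, the chaperone that brings such exporters to the membrane, rose by 0.48 (SE 0.11). With the trend in GC content and length removed, Slc2a1 and Slc16a3 stood at 0.90 and 0.99 with adjusted p-values of 0.0599 and 0.0568, and Bsg at 0.17.

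Of the other glycolytic enzymes, 2 of 14 with an adjusted p were called higher and 0 lower, where 4.15% of all genes were called higher, at a median log2 fold change of 0.35 in the authors' deposited table. They were Hk3, a hexokinase of myeloid cells, at 0.40 (SE 0.14), and the galactokinase Galk1 at 0.73 (SE 0.24). With the trend removed neither was called, at 0.24 for Hk3 (adjusted p 0.56) and 0.32 for Galk1 (adjusted p 0.713). Among regulators, 1 of 11 was called, Pdk3, a kinase that inhibits pyruvate dehydrogenase, at 0.64 (SE 0.14) in the authors' deposited table, while the list's median was -0.04, and 0.12 with the trend removed. Over all genes 7.69% were called. Pdk3 stood at 0.60 with the trend removed and kept its call (adjusted p 0.00314). Of the 8 genes of pyruvate entry into mitochondria, none was called in that table, and they spanned -0.0029 for Pdhb to 0.19 for Pdhx. The list of gluconeogenesis and glycogen genes had 1 of 9 called higher, where 4.15% of all genes were, Pgm2, a phosphoglucomutase, at 0.69 (SE 0.24), with a median of -0.06; with the trend removed Pgm2 stood at 0.64 (adjusted p 0.179).

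Of 8 genes for HIF factors and the hydroxylases that control them, 1 was called in the authors' deposited table, where 7.69% of all genes were. It was the prolyl hydroxylase Egln2 at 0.40 (SE 0.14), which stood at 0.04 with the trend removed (adjusted p 0.983), and the median of the list was 0.07. Among 17 HIF targets outside glycolysis with an adjusted p, 4 were called higher and 0 lower, Slc2a1 among them, where 4.15% of all genes were called higher. With the trend removed 0 of the 17 were called, where 0.779% of all genes were called higher and 0.489% lower. The others were Mif, a cytokine gene, at 1.07 (SE 0.23), Bhlhe40, a transcription factor gene, at 0.92 (SE 0.30), and Adm, which encodes adrenomedullin, at 4.88 (SE 1.41) in the authors' deposited table. Adm was at 0.251 normalized counts in room air and 7.41 after smoke, so its fold change rests on very low counts. With the trend removed Mif stood at 0.61 (adjusted p 0.195), while Bhlhe40 stayed at 0.92 (adjusted p 0.0911) and Adm at 4.71 (adjusted p 0.0589). The median of these targets was 0.21 in the same table, with 12 of the 17 above 0 and 5 below.

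**Figure D5:**
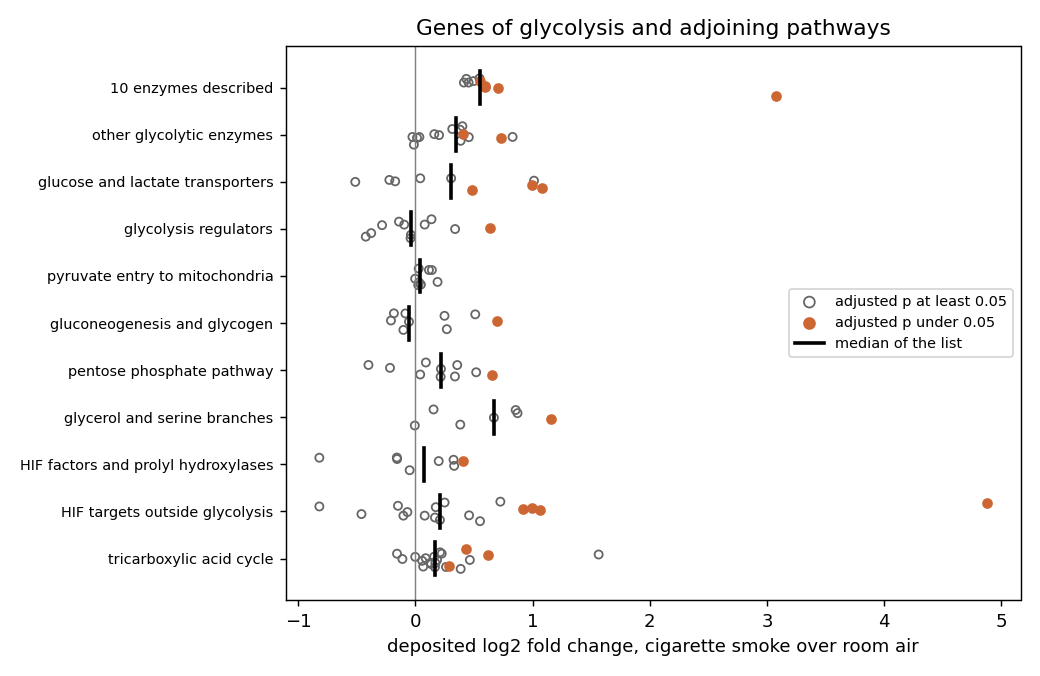
Deposited log2 fold changes for every gene with an adjusted p in the 10 glycolytic enzymes and 10 adjoining lists, filled where the adjusted p was under 0.05, with a vertical line at each list's median. No gene is called lower in any list, and the median of the 10 enzymes, 0.55, is exceeded by that of the glycerol and serine branches, 0.67.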

How the data were processed

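Libraries from total RNA were made with a directional kit, per the labels' protocols. STAR, DESeq2, SAMtools 1.9 and bedtools 2.27.1, and the build mm10, are named in the submitters' processing notes, without their roles; the counting program and its treatment of reads with several positions are not given in the sources used here. The authors deposited group means of normalized counts (the signal values used here), the log2 fold change with its SE, the Wald score, and p-values with adjusted p-values. The fit behind them covered 24 libraries, of which 18 are not analysed here. An adjusted p is missing for 7291 genes with a p-value. The authors also deposited JuncBASE percent inclusion per library and an rMATS table, of which 6 per-sample columns were not used.

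The p-values, SEs and fold changes of expression are those of the authors, and no library values or library totals for expression were used, so depth per library is not given. Inclusion percentages p were tested as log2((p + 1)/(100 - p + 1)) with limma 3.58.1 in R 4.3.3, group as the term, over all events, with Benjamini-Hochberg adjustment. If libraries share animals or cultures, these p-values measure only the spread between libraries. For the trend, the fold changes of genes with an adjusted p were regressed on GC content and on log2 length, each as a natural spline with 4 degrees of freedom (patsy 1.0.2), by least squares weighted with the deposited SEs (statsmodels 0.14.6). New p-values came from residual over SE. Both procedures were also run on simulated data with known changes, which does not measure their power or error in these data. Length and GC content are those of the longest protein-coding transcript in GENCODE M21 (GRCm38), or the longest transcript of genes without one. Copies were found by shared 50-base stretches and matched by gene ID, and Eno1 was aligned with Eno1b in Biopython 1.88.

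The 10 genes, the gene lists, the tests and the rules for naming genes were set with earlier results of these data known. Genes outside the 10 were named where their adjusted p was under 0.05, or, in lists with none, for the largest change each way where the mean reached 50 normalized counts. Copies were named where their mean reached 50. Gm5537, Phgdh, Psph, Acod1 and the single cell type markers were chosen after their values were seen.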

Additional observations from a re-analysis of the deposited data

How the results depend on the processing

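All 10 genes kept a mean or remainder above 0 under each of the scalings, pseudocounts and trend removals run. A pseudocount added to both means cannot turn the sign of their difference, and rescaling and centring shift every gene alike. The genes were also chosen on these means, so nothing is read from this. Their median log2 fold change of 0.55 moved to 0.34 with the trend in GC content and length removed, and lay between 0.37 and 0.58 under the other settings, the lower value with the longest transcript of any type, an alternative chosen after seeing the data. The number of the 10 genes called was 5 at an adjusted p under 0.05, 2 at 0.01 and 7 at 0.1. It was 3 with p-values adjusted over every gene with a p-value and 6 over genes whose mean reached 50. With the trend removed it was 1, whichever transcript was used. Over all genes 7.69% were called at 0.05, and 0.779% were called higher with the trend removed. Shares over all genes under the other settings were not computed, so these counts are a description. Of the 21 genes named from the 10 and the pathway lists, copies left out, that had an adjusted p under 0.05, 18 lost it with the trend removed and 3 kept it, Eno1b, Psat1 and Pdk3. With the longest transcript of any type 17 lost it, since Mdh2 kept its call. Over all genes, removing the trend with the longest protein-coding transcript took calls from 502 higher and 427 lower to 94 and 59. The fold change of Adm fell to 2.75 with a pseudocount of 1 and to 0.76 with one of 10. In limma the number of called events in Aldoa and Pkm stayed at 0 under every setting. The log2 odds difference of the Pkm exon pair ranged from -0.45 to 0.0453 when single libraries were left out, its sign turning only without cigarette smoke replicate 3; the cause was not tested. With the replicate number as a block it was -0.27 with 0 calls; same-numbered libraries, whose deviations correlated at 0.018, -0.04 and -0.09, share only a number. Expression had no library values, so no library could be left out there. Depth behind the percentages is unknown.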

Other observations

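Pathways that branch off glycolysis or follow it were also covered. The glycerol and serine branches had the highest median of the lists, 0.67 on the log2 scale in the authors' deposited table, with 1 of 7 genes called higher and 0 lower, against 4.15% of all genes called higher. That gene, Psat1, a transaminase of serine synthesis from a glycolytic intermediate, rose by 1.16 (SE 0.24) on the log2 scale, from 142.6 normalized counts in room air to 315.6, as the authors' deposited table gives it, and stood at 1.14 with the trend in GC content and length removed (adjusted p 0.00128). Phgdh and Psph, the other enzymes of serine synthesis, were picked after their values were seen and were not called, the authors' deposited table putting them at 0.85 (SE 0.59) and 0.67 (SE 0.52). In the pentose phosphate pathway, which makes NADPH from glucose 6-phosphate, 1 of 10 genes was called, against 7.69% of all genes. It was the lactonase Pgls at 0.66 (SE 0.18), and the list's median was 0.22 in the authors' deposited table. With the trend removed Pgls stood at 0.11 (adjusted p 0.932), or at 0.42 (adjusted p 0.293) with the longest transcript of any type, and the median at 0.02.

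Of 21 tricarboxylic acid cycle genes, 3 were called higher and 0 lower in the authors' deposited table, where 4.15% of all genes were called higher, with a median of 0.17. They were Mdh2, the mitochondrial malate dehydrogenase, at 0.62 (SE 0.12), Fh1, fumarase, at 0.43 (SE 0.14), and Ogdh, a subunit of the oxoglutarate dehydrogenase complex, at 0.29 (SE 0.09). Acod1, which diverts the cycle to itaconate in activated macrophages and was also picked after its values were seen, was not called. The authors' deposited table gives it 130.5 normalized counts in room air and 385.9 after smoke, 1.56 (SE 0.58) on the log2 scale, with an adjusted p of 0.073. With the trend removed, Mdh2 stood at 0.35, Fh1 at 0.44 and Ogdh at 0.28, each with an adjusted p between 0.0735 and 0.0954. With the longest transcript of any type in the trend, Mdh2 stood at 0.43 and kept its call (adjusted p 0.0228).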
